A study of Homo sapiens with 6 samples.

Results

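MALAT1 and NEAT1 are long non-coding RNAs that stay in the nucleus, and COX3 and ND6 are genes of the mitochondrial genome. These 4 genes were followed here across 6 expression arrays of human gastric cancer cells. The members were every probe set of these genes that the platform annotation assigns to a single gene. That gave 14 of the 41097 single-gene probe sets on the array and of 54675 probe sets in all. MALAT1 had 12 of them, COX3 had 1 and ND6 had 1. NEAT1 had 0, since each of its 9 probe sets is annotated to NEAT1 and also to MIR612, a microRNA gene that RefSeq (GRCh38.p14) places inside NEAT1. Those 9 are described separately below as NEAT1/MIR612 probe sets. The genes were chosen by their lower values in transfected than in untransfected cells on these same arrays, so that comparison is given as a description without a test.

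MALAT1 and NEAT1 are near neighbours on chromosome 11. MALAT1 gathers in nuclear speckles, bodies that store splicing factors, and NEAT1 is the scaffold of paraspeckles. The end of MALAT1 is cut by RNase P and closed by a triple helix in place of a poly(A) tail. The short form of NEAT1 has a poly(A) tail and the long form ends like MALAT1. The mitochondrial genome is transcribed from both strands into long precursors that are then cut into single RNAs. COX3 encodes a core subunit of cytochrome c oxidase and lies next to ATP6, while ND6, a subunit of complex I, is the only protein gene read from the other strand, and its RNA lacks a regular poly(A) tail.

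The series compared cells that received a plasmid for MIST1, a transcription factor of secretory cells, with 2 kinds of control. The MIST1 arrays came from cells nucleofected with 3 µg of MIST1 plasmid and 1.5 µg of a GFP plasmid. The GFP control arrays came from cells given 3 µg of empty vector and 1.5 µg of the same GFP plasmid. Both were sorted for GFP 24 h later and harvested after another 24 h. The parental arrays came from cells with no genetic modification, and no label says that these were sorted. Each condition was measured once in AGS, a gastric adenocarcinoma line, and once in HGC-27, a line from an undifferentiated gastric carcinoma. Each array took 5 µg of total RNA. The labels give no separate cultures or passages, expression was transient, and what separates parental from transfected cells (plasmid, nucleofection, sorting, time in culture) cannot be told apart.

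Values are deposited probe set intensities on a linear scale. A floor of 17.6, the 25th percentile of all values, was applied before log2. A probe set entered the tests if at least 2 of the 6 arrays exceeded the median of all values, 50.53, which all 14 member probe sets did. Array medians lay between 49.12 and 51.96. The ratio of the 3' over the 5' control probe set, a sign of RNA integrity, was 0.826 to 0.883 for GAPDH and 0.968 to 1.05 for ACTB over the 6 arrays, while that of 18S and 28S rRNA varied more and is given with the rRNA below. Of 5 epithelial markers, all 5 passed the filter, but KRT19 was at most 9.2 and EPCAM at most 34.38 in HGC-27, while in AGS they were at least 8050 and 5681. KRT18 was also low in HGC-27, at most 35.8, but KRT8 read at least 1350 there. CDH1 read 75.4 in MIST1 cells and 89.8 in GFP control cells, against 22.1 in parental cells of HGC-27. HGC-27 was high in the fibroblast genes COL3A1 (at least 7383) and DCN (at least 3244), which read at most 4.38 and 49.6 in AGS. COL1A1 by 1556499_s_at read at least 5620 in HGC-27, and in AGS 1164 in MIST1 cells and 1314 in GFP control cells, against 682 in parental cells. By 202311_s_at it read far lower in AGS, at 62.9 and 72.6, against 36.85, and at least 1177 in HGC-27. The next sum takes COL1A1 by 1556499_s_at, which makes up most of the sum in AGS. Summed over the 10 of 11 leukocyte, endothelial and fibroblast markers on the array, the level was 1465 in MIST1 cells and 1639 in GFP control cells, against 951 in parental cells of AGS, and 18925 and 19429, against 16878 in HGC-27. PTPRC, CD14 and CDH5, which define leukocytes, monocytes and endothelium, did not pass the filter, and neither did MS4A1 and VWF. The leukocyte marker CD3E did pass, at 41.6 to 66.7 over the 6 arrays. So did the endothelial marker PECAM1, at 80.9 to 100.9. The part of these markers in the results below was not tested.

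MALAT1 was lower in the transfected cells of both lines than in parental cells. The probe set with the highest mean, 1558678_s_at, read 529 in MIST1 cells and 390 in GFP control cells, against 3685 in parental cells of AGS. In HGC-27 it read 382 in MIST1 cells and 324 in GFP control cells, against 1566 in parental cells. All 4 transfected arrays lay far below both parental arrays. The GFP control was 9.46-fold below parental in AGS and 4.83-fold in HGC-27, and MIST1 cells were 6.97-fold and 4.1-fold below it.

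Of the other 11 MALAT1 probe sets, 9 also had both transfected arrays below the parental array in both lines, and the size differed widely among them. The full order of the brightest, with the GFP control lowest and MIST1 between it and parental in both lines, was shared by 5 of the 11. In both lines the GFP control lay below parental cells on 10 of the 12, and on 23.8% of all tested probe sets. Of the 14 member probe sets, 8 were at least 2-fold lower in both lines, where 0.42% of all were, and 4 at least 4-fold lower, where 0.027% of all were. These shares come from the comparison that chose the genes. Both counts include 226675_s_at, which passed the filter only through its parental arrays. Over the 10 MALAT1 probe sets, the GFP control was lower by 3.01-fold to 18.6-fold in AGS (median 7.87-fold) and by 1.56-fold to 6.46-fold in HGC-27 (median 2.88-fold). The largest difference was that of 226675_s_at, which read 44.9 in MIST1 cells and 38.0 in GFP control cells, against 707 in parental cells of AGS. In HGC-27 it read 38.2 and 28.8, against 186. The smallest in AGS was that of 224559_at, which read 176 and 177, against 533 there, and 123 and 91.5, against 178 in HGC-27. The smallest in HGC-27 was that of 227510_x_at, which read 47.9 and 47.1, against 73.7 there, and 50.8 and 61.4, against 242 in AGS.

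Another 2 MALAT1 probe sets departed from this pattern. Probe set 224558_s_at read 418 in MIST1 cells and 296 in GFP control cells, against 318 in parental cells of AGS, and 352 and 326, against 280 in HGC-27. It was nearly level across all 6 arrays and slightly higher in the transfected cells of HGC-27. Probe set 223578_x_at read 130 in MIST1 cells and 72.2 in GFP control cells, against 125 in parental cells of AGS, and 112 and 109, against 54.7 in HGC-27. Only its AGS GFP control array was lower than parental, and both transfected HGC-27 arrays were higher. Of the 12 MALAT1 probe sets, 7 have names ending in _x_at, which marks probes that can match other transcripts, and 4 end in _s_at, which marks probes shared between transcripts. The letters of the probes were not used here, so the stretch of MALAT1 that each probe set reads is not known, and RefSeq also places the antisense gene TALAM1 over MALAT1.

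**Figure D1:**
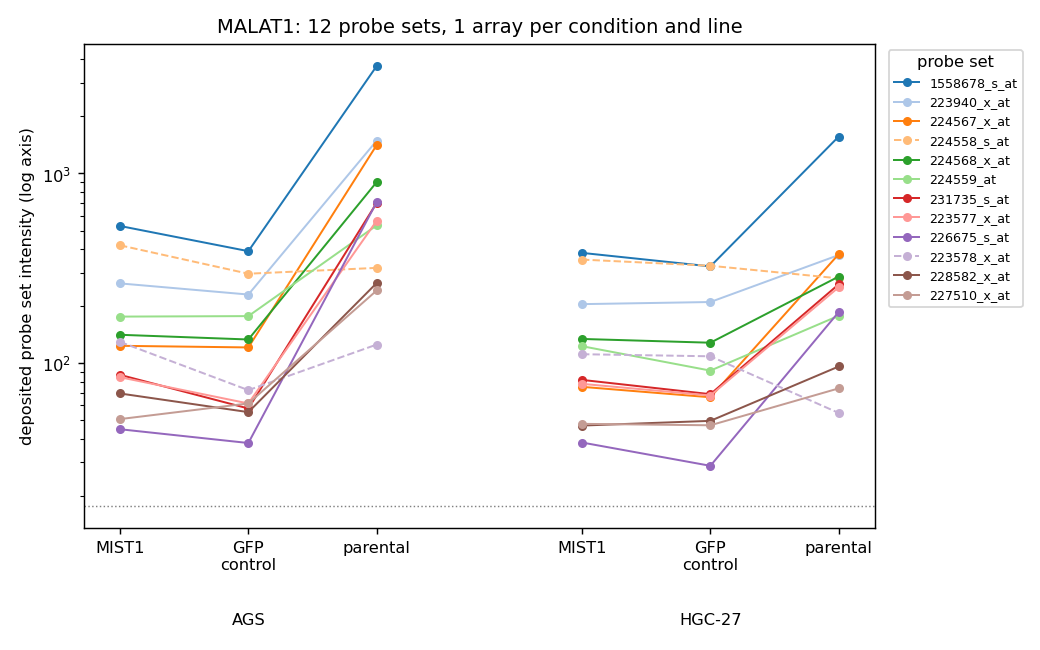
Deposited intensity (log axis) of the 12 MALAT1 probe sets on the 6 arrays, ordered as MIST1, GFP control and parental within AGS (left) and HGC-27 (right). Each line joins the 3 arrays of 1 cell line for 1 probe set, dashed lines are 224558_s_at and 223578_x_at, and the dotted horizontal line is the floor of 17.6; the 10 solid lines all end higher in parental cells.

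Most NEAT1/MIR612 probe sets also read lower in GFP control cells than in parental cells. The brightest, 224566_at, read 2809 in MIST1 cells and 1839 in GFP control cells, against 2312 in parental cells of AGS. In HGC-27 it read 744 and 666, against 1291. In HGC-27 both transfected arrays were below parental, while in AGS the MIST1 array was the highest of the 3. Of the 9 probe sets, 8 passed the filter, and the GFP control lay below parental cells in both lines on 7 of the 9. The same held for 24.7% of all tested probe sets, those with several or no gene included. The probe sets read the same locus on the same arrays, so the 7 are not separate observations. The median over the 9 was 1.56-fold lower in AGS and 1.81-fold lower in HGC-27, against 6.61-fold and 2.08-fold over the 12 of MALAT1. The AGS median was the value of 220983_s_at, which did not pass and whose GFP control value was set to the floor. Over the 8 that passed, the medians were 1.71-fold and 1.87-fold lower.

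The size of the difference varied along the NEAT1 probe sets too. Probe set 227062_at read 116 in MIST1 cells and 78.5 in GFP control cells, against 328 in parental cells of AGS, and 71.5 and 55.5, against 137 in HGC-27. Its GFP control was 4.17-fold and 2.47-fold below parental. Probe set 214657_s_at differed less, by 1.45-fold in AGS and 1.28-fold in HGC-27. The dim 239269_at went the other way in AGS, at 69.9 and 58.0, against 33.1, and was 50.9 and 34.1, against 36.0 in HGC-27. The dimmest, 220983_s_at, did not exceed 27.5 on any array.

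**Figure D2:**
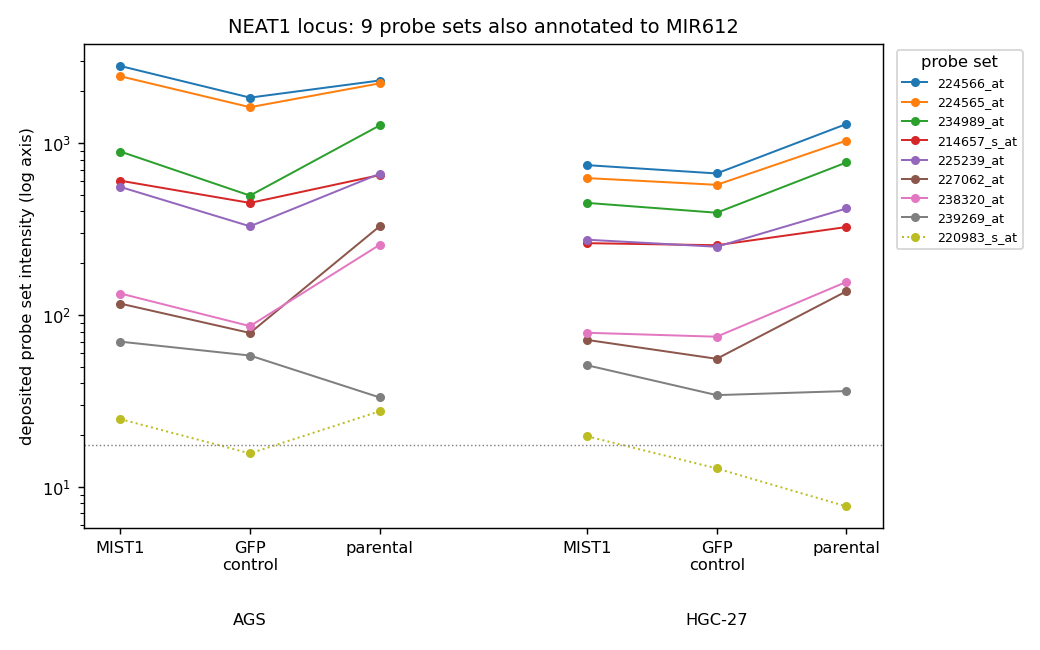
Deposited intensity (log axis) of the 9 NEAT1 probe sets that are also annotated to MIR612, on the 6 arrays in the order MIST1, GFP control and parental within AGS (left) and HGC-27 (right). The sloping dotted line is 220983_s_at, which did not pass the filter, and the horizontal dotted line is the floor of 17.6; in all 9 the MIST1 array lies above the GFP control in both lines.

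Among the mitochondrially encoded members, COX3 was read by 1 probe set, 238199_x_at. It read 71.25 in MIST1 cells and 70.0 in GFP control cells, against 376 in parental cells of AGS. In HGC-27 it read 67.7 and 62.2, against 456. The 4 transfected arrays lay between 62.2 and 71.25, all below both parental arrays. The GFP control was 5.37-fold below parental in AGS and 7.32-fold in HGC-27. The gap was wider in HGC-27 than in AGS, the reverse of the brightest MALAT1 probe set.

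ND6 was read by 1553575_at. It read 218 in MIST1 cells and 203 in GFP control cells, against 802 in parental cells of AGS. In HGC-27 it read 185 and 175, against 540. Again all 4 transfected arrays were low and both parental arrays high, with the GFP control 3.94-fold below parental in AGS and 3.09-fold in HGC-27.

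The other mitochondrial messengers on the array differed by small amounts, with 1 exception. Of 13 further mitochondrially encoded genes listed, 5 had single-gene probe sets (ATP6, COX1, COX2, ND2 and ND4), 8 probe sets in all. In the limma fit of the GFP control against parental cells, 1 of these 5 genes fell and 0 rose, where 0.659% of 25948 tested probe sets were called, 0.308% higher and 0.351% lower. The call was ATP6, a subunit of ATP synthase, by its dim probe set 242131_at. This read 106 in MIST1 cells and 78.5 in GFP control cells, against 256 in parental cells of AGS, and 77.3 and 91.7, against 229 in HGC-27, a fall of 1.51 on the log2 scale (SE 0.21, limma adjusted p = 0.0465). The call was lost without the filter on dim probe sets, with either other floor, without the variance trend and without cell line as a block (limma adjusted p from 0.0566 to 1 over these).

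The bright probe set of the same gene did not follow it. ATP6 by 1553567_s_at read 10181 in MIST1 cells and 8877 in GFP control cells, against 11393 in parental cells of AGS, and 8636 and 8391, against 10159 in HGC-27. Its difference was -0.32 (SE 0.05, limma adjusted p = 0.0555). COX1, the catalytic subunit of cytochrome c oxidase, read 15994 and 15258, against 15938 in AGS, and 15083 and 14381, against 15189 in HGC-27, a difference of -0.07 (SE 0.04, limma adjusted p = 0.286). On each of the 7 bright probe sets of these 5 genes, GFP control cells read below parental cells in both lines, by at most 1.28-fold in AGS and 1.21-fold in HGC-27. With quantile normalization the bright probe sets of ATP6, ND2 and ND4 passed as lower (limma adjusted p from 0.0371 to 0.0461). Their means were above those of at least 99.5% of tested probe sets, and the highest value in the whole table was 19070. Whether their signals were near saturation was not tested. The COX3 and ND6 probe sets had means above 43.3% and 59.1% of tested probe sets, and COX3 is transcribed in the same precursor RNA as these bright genes.

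**Figure D3:**
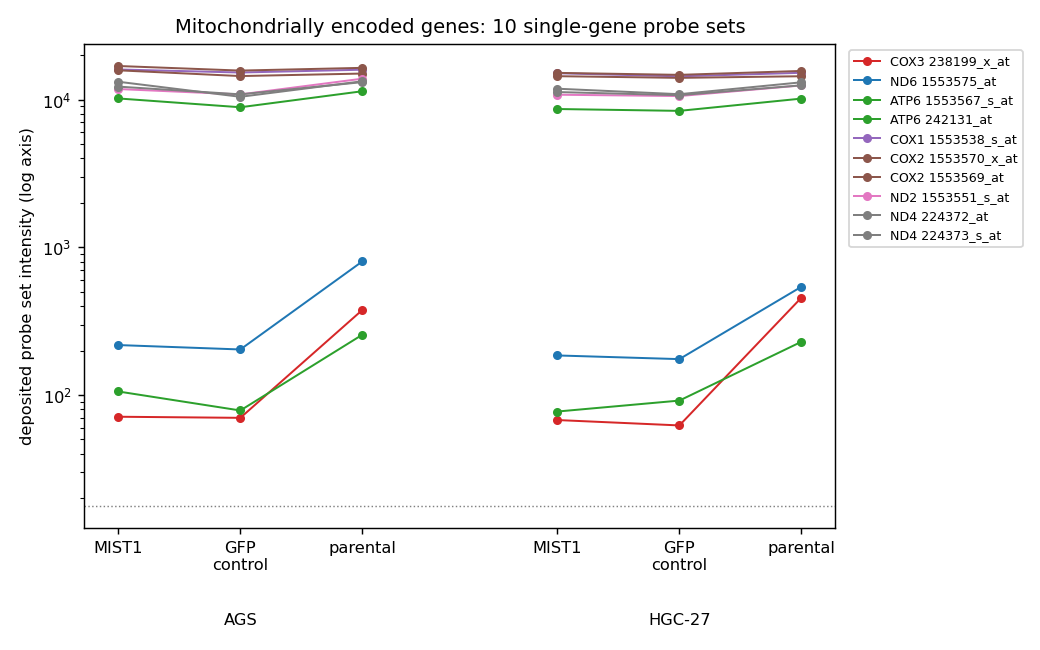
Deposited intensity (log axis) of the 10 single-gene probe sets of mitochondrially encoded genes on the 6 arrays, in the order MIST1, GFP control and parental within AGS (left) and HGC-27 (right), with the floor of 17.6 as a dotted line. The dim probe sets of COX3, ND6 and ATP6 end higher in parental cells, and the 7 bright probe sets at the top run nearly level.

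Some ribosomal RNA control probe sets moved with the members. The array carries 6 of them, for the 5' end, middle and 3' end of 18S and of 28S rRNA, and neither RNA has a poly(A) tail. The 5' end of 18S read 37.25 in MIST1 cells and 63.1 in GFP control cells, against 566 in parental cells of AGS, and 99.1 and 109, against 141 in HGC-27. The 3' end of 18S read 636 and 809, against 1791 in AGS, and 812 and 776, against 1315 in HGC-27. So all 18S control probe sets, the middle included, were highest in the parental arrays, with the GFP control lower by 2.21-fold to 23.7-fold in AGS and by 1.29-fold to 7.12-fold in HGC-27.

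For 28S the picture was mixed. Its 5' end read 425 in MIST1 cells and 427 in GFP control cells, against 1253 in parental cells of AGS, and 410 and 455, against 873 in HGC-27. The 3' end read 179 and 188, against 208 in AGS, and 295 and 413, against 437 in HGC-27. The GFP control was thus 2.93-fold and 1.92-fold lower at the 5' end but 1.11-fold and 1.06-fold lower at the 3' end, and its middle was higher than in parental cells in both lines. The ratio of the 3' over the 5' end of 18S was 17.1 in MIST1 cells and 12.8 in GFP control cells, against 3.16 in parental cells of AGS, and 8.2 and 7.13, against 9.35 in HGC-27. That of 28S was 0.421 and 0.44, against 0.166 in AGS, and 0.72 and 0.908, against 0.5005 in HGC-27. Both ratios thus were higher in the transfected cells of AGS, but in HGC-27 only that of 28S was. The control probe set for Alu repeats differed by at most 0.03 on the log2 scale between GFP control and parental cells. What part rRNA in the labelled sample has in the values of MALAT1, NEAT1, COX3 and ND6 was not tested. Since each array measures total RNA of a culture, fewer cells carrying a transcript and less of it per cell cannot be told apart.

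**Figure D4:**
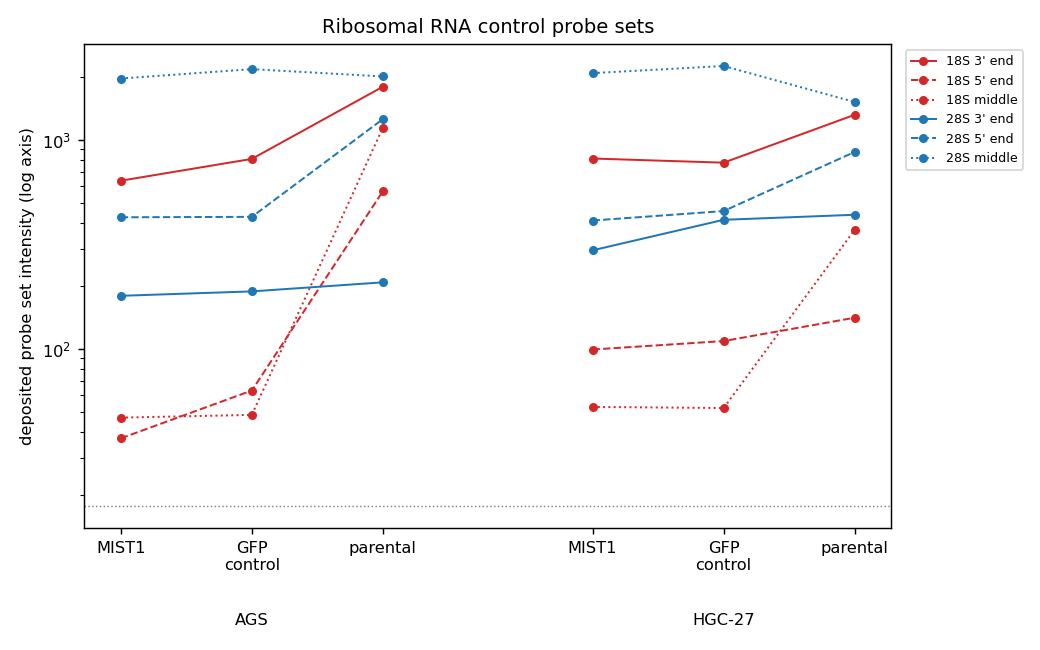
Deposited intensity (log axis) of the 6 ribosomal RNA control probe sets, 18S in red and 28S in blue, on the 6 arrays in the order MIST1, GFP control and parental within AGS (left) and HGC-27 (right). Solid lines are the 3' end, dashed lines the 5' end and dotted coloured lines the middle, and the grey dotted line is the floor of 17.6; the 3 lines of 18S and the 5' end of 28S are highest in parental cells.

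The comparison of MIST1 with the GFP control was not itself used to choose the genes, but its arrays were among those used. In the limma fit of all 6 arrays with cell line as a block, 0 of the 12 MALAT1 probe sets and neither COX3 nor ND6 passed. No probe set of any gene did (0.0% of 25948), and 314 had an unadjusted p under 0.05. Leaving out any 1 array gave 5 to 57 calls, 0 of them among the 14. MALAT1 by 1558678_s_at was higher with MIST1 by 0.34 on the log2 scale (SE 0.23, limma adjusted p = 1), at 0.44 in AGS and 0.24 in HGC-27. Its value was 0.045 without the AGS and 0.63 without the HGC-27 GFP control array, and 0.48 without the AGS and 0.20 without the HGC-27 MIST1 array. Over the 12 MALAT1 probe sets the fitted difference ran from -0.12 to 0.44 with a median of 0.26, and 8 were higher in both lines, where 22.9% of all tested probe sets were. Of the 12, 226675_s_at passed the filter only through its parental arrays, and without it 7 of 11 were higher in both. These probe sets read 1 RNA and share their arrays, so the 8 are not separate observations. COX3 differed by 0.07 (SE 0.18) and ND6 by 0.09 (SE 0.16).

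On every one of its 9 probe sets, NEAT1/MIR612 read higher in MIST1 cells than in GFP control cells in both lines. The median was 1.51-fold in AGS and 1.12-fold in HGC-27. Of the 9, 220983_s_at did not pass the filter, and its GFP control values of 15.6 and 12.8 were under the floor. The 8 that passed were all higher in both lines, where 23.8% of probe sets that passed, those with several or no gene included, were. These probe sets read the same locus and share their arrays, so they are not separate observations. The largest difference was that of 234989_at, which read 893 in MIST1 cells against 495 in the GFP control in AGS, and 449 against 393 in HGC-27. Fitted over all probe sets, the 8 that passed the filter differed by 0.23 to 0.52 on the log2 scale with a median of 0.40. Without the AGS MIST1 array 224566_at was at 0.0045, against 0.39 with all arrays, and 224565_at at 0.032, against 0.36. Without the HGC-27 MIST1 array they were at 0.77 and 0.70. Over the 8 probe sets, with each MIST1 or GFP control array left out in turn, the values ran from 0.0045 to 0.78. None passed (limma adjusted p = 1 for each), and 2 had an unadjusted p under 0.05, as 1.26% of all probe sets in that fit did. The fit of only the 4 arrays compared, whose spread leaves out the parental arrays, called 0 of these 8 (limma adjusted p from 0.206 to 0.442), with 7 at an unadjusted p under 0.05, where 11.4% of all were. It called 0 of the 14 member probe sets too, with 4 under that limit, where 11.8% of all single-gene probe sets were.

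The bright mitochondrial messengers leaned the same way by small amounts. All 7 of their probe sets were higher with MIST1 in both lines, by a median of 0.13 in AGS and 0.04 in HGC-27 on the log2 scale, where the median of all probe sets was 0.00 and -0.04. Of all tested probe sets, 22.9% were higher in both lines. The 7 read RNAs of the same mitochondrial genome and share their arrays, so they are not separate observations. The dim ATP6 probe set 242131_at was at 0.43 in AGS and -0.25 in HGC-27. ND4, a subunit of complex I, had the largest fitted difference by 224372_at, 0.23 (SE 0.06, limma adjusted p = 1). It read 13210 in MIST1 cells against 10448 in the GFP control in AGS, and 11852 against 10880 in HGC-27.

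**Figure D5:**
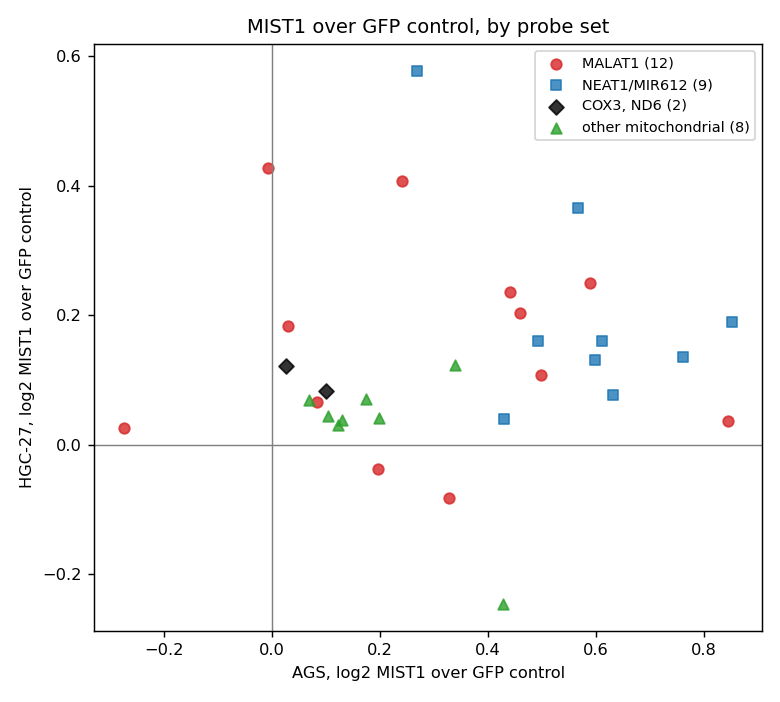
Log2 difference of MIST1 over GFP control in AGS (horizontal axis) and in HGC-27 (vertical axis), 1 point per probe set, with values under 17.6 set to it. The 9 NEAT1/MIR612 squares all lie to the upper right of 0, as do 8 of the 12 MALAT1 circles, the COX3 and ND6 diamonds lie close to 0, and triangles are the 8 probe sets of other mitochondrial genes.

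MALAT1 was higher in AGS than in HGC-27 mainly on the parental arrays, which were among those used to choose the genes. Most NEAT1/MIR612 probe sets were higher in AGS in all 3 conditions. In parental cells MALAT1 by 1558678_s_at was 2.35-fold higher in AGS than in HGC-27, in GFP control cells 1.2-fold and in MIST1 cells 1.39-fold. The fitted difference over the 3 conditions was 0.66 on the log2 scale (SE 0.19, limma adjusted p = 0.0202). Without either AGS or HGC-27 parental array it was 0.37, with limma adjusted p = 0.00165 and 0.00139. Of the 12 MALAT1 probe sets, 4 were called higher in AGS, which is near the 32.9% of all tested probe sets called higher there (26.9% were called lower and 59.8% either way). AGS was the higher line in all 3 conditions on 8 of the 12, where 42.4% of all were. Besides the brightest, the calls were 224567_x_at at 1.17 (SE 0.24, limma adjusted p = 0.00486), 224559_at at 1.02 (SE 0.21, limma adjusted p = 0.00491) and 228582_x_at at 0.73 (SE 0.26, limma adjusted p = 0.0459). The last was not called without either the AGS or the HGC-27 parental array, at 0.36 (limma adjusted p = 0.0829 and 0.0612). Without the filter on dim probe sets none of the 4 was called (limma adjusted p from 0.0943 to 0.247). The median over the 12 was 2.87-fold in parental cells, 1.18-fold in MIST1 cells and 1.1-fold in GFP control cells. The 3 conditions stand in for replicates of a line, so these p-values do not measure the spread between cultures.

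The NEAT1/MIR612 probe sets were called higher in AGS in 7 of the 8 tested, where 31.3% of all probe sets, those with several or no gene included, were (57.1% in either direction). They read the same locus on the same arrays, so the 7 are not separate observations. The largest was 224565_at at 1.53 on the log2 scale (SE 0.16, limma adjusted p = 0.000224), with 2448 in AGS against 625 in HGC-27 with MIST1, 1617 against 571 in the GFP control and 2225 against 1034 in parental cells. It was thus 3.91-fold higher in AGS with MIST1, 2.83-fold in the GFP control and 2.15-fold in parental cells. Without either the AGS or the HGC-27 MIST1 array, the call of 238320_at was lost, at 0.46 (limma adjusted p = 0.147 and 0.134), and without the filter 5 of the 7 were. ND6 was 0.34 higher in AGS (SE 0.13, limma adjusted p = 0.0572), and COX3 differed by -0.01 (SE 0.15, limma adjusted p = 0.959). Of the 8 probe sets of other mitochondrial genes, 3 were called higher in AGS, where 32.9% of all tested single-gene probe sets were. They were ATP6 by 1553567_s_at at 0.16 and COX2 by 1553570_x_at at 0.11 (limma adjusted p = 0.0164 and 0.0243), and ND2 at 0.11 (limma adjusted p = 0.0483). The other COX2 probe set was not called.

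Genes that work on these RNAs mostly did not pass in the GFP control against parental cells, where 0.659% of all tested probe sets were called. Of 22 nuclear speckle and MALAT1-processing genes tested, 1 fell and 0 rose. It was SRRM2, a scaffold protein of nuclear speckles, by 208610_s_at, which read 420 in MIST1 cells and 404 in GFP control cells, against 1106 in parental cells of AGS, and 388 and 386, against 759 in HGC-27. It fell by 1.21 on the log2 scale (SE 0.16, limma adjusted p = 0.0444), a call lost under the same settings as that of ATP6. The brightest SRRM2 probe set, 207435_s_at, differed by -0.18 (SE 0.11, limma adjusted p = 0.377).

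Of 20 paraspeckle proteins tested, 0 passed, with a median of -0.01 over the brightest probe set of each. Over the brightest probe set of every tested gene the median fitted difference was 0.07. By line, the median over all tested probe sets was 0.00 in AGS and 0.14 in HGC-27. The largest differences were -0.63 for ARID1B (SE 0.17), -0.59 for MATR3 (SE 0.25) and 0.28 for TARDBP (SE 0.11). Of 31 genes of mitochondrial transcription and RNA handling, 0 passed, with a median of -0.03. TFB1M, which methylates mitochondrial rRNA, differed by -0.56 (SE 0.17), PRORP, the nuclease subunit of mitochondrial RNase P, by 0.48 (SE 0.20) and POLG, the mitochondrial DNA polymerase, by -0.45 (SE 0.16). Of 18 nuclear-encoded subunits of the complexes that hold COX3 and ND6, 0 passed, with a median of 0.03 and COX8A at 0.30 (SE 0.06, limma adjusted p = 0.0651).

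Other long non-coding RNAs and RNAs without a poly(A) tail gave no calls in the GFP control against parental cells. Of 22 other long non-coding RNAs tested, 0 passed, and the median was -0.10. By the brightest probe set of each, 9 were lower and 2 higher in the GFP control in both lines. Of all tested probe sets, 23.8% were lower in both, and the share higher in both was not computed. KCNQ1OT1, a nuclear RNA that silences imprinted genes, differed by -0.95 by 243428_at (SE 0.21, limma adjusted p = 0.0773) and by -0.05 by 237249_at. GAS5, a host of small nucleolar RNAs, differed by -0.92 (SE 0.35) and MIAT by 0.65 (SE 0.20). Of 22 replication-dependent histone genes, whose messengers lack a poly(A) tail, 0 passed, with 6 lower and 3 higher in both lines. The 6 lower are near the 23.8% of all tested probe sets. The linker histone H1-4 read 16.99 in MIST1 cells and 16.1 in GFP control cells, both under the floor, against 93.5 in parental cells of AGS. In HGC-27 it read 40.8 and 32.4, against 103, with limma adjusted p = 0.0508 over both lines. H1-4 passed the filter only through its parental arrays, so this p-value rests on the group where it is high.

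H2AC17, a core histone, read 26.6 and 25.8, against 146 in AGS, and 36.3 and 42.6, against 109 in HGC-27, with limma adjusted p = 0.0539. Like H1-4, it passed the filter only through its parental arrays. H4C8 differed by 1.1 (SE 0.42). RPPH1, the RNA of RNase P, and SCARNA2, a small nuclear RNA, were the 2 tested of 20 other RNAs without a poly(A) tail. RPPH1 differed by 0.17 (SE 0.16) and SCARNA2 by -0.02 (SE 0.38), and neither was called. With MIST1 against the GFP control, 0 genes of any of these lists passed, and the largest differences in 4 of them were -0.42 for TBRG4 (SE 0.24), -0.38 for H2AC6 (SE 0.44), 0.34 for KCNQ1OT1 (SE 0.21) and -0.26 for POP1 (SE 0.21).

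Few genes shared the pattern of MALAT1 or COX3 at a like size. Among the brightest probe sets of 13738 genes, 3 were at least 4-fold lower in MIST1 and in GFP control cells than in parental cells in both lines, namely MALAT1, COX3 and FAM223B, a non-coding RNA gene. FAM223B, by 244164_at, read 14.25 in MIST1 cells and 14.9 in GFP control cells, both under the floor, against 75.2 in parental cells of AGS, and 41.0 and 38.3, against 204 in HGC-27. Over the 6 arrays, with each line set to its own mean, its log2 values had a Pearson r of 0.97 with MALAT1 and 0.9998 with COX3. A high r follows from the rule that picked FAM223B, since all 3 genes had to be at least 4-fold lower on the same 4 arrays. FAM223B also passed the filter only through its 2 parental arrays.

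Between the lines, genes of these lists were called both ways. AGS over HGC-27, 5 of the 22 long non-coding RNAs were called higher and 12 lower, and 9 of the 20 paraspeckle proteins higher and 10 lower. A gene counted if any of its probe sets was called, and it could count both ways. The 20 paraspeckle genes had 76 tested probe sets, of which 39 were called. Of all tested single-gene probe sets, 32.9% were called higher in AGS and 26.9% lower. PSPC1, a core paraspeckle protein, was 1.18 higher in AGS on the log2 scale (SE 0.11, limma adjusted p = 0.000105), at 1343, 1330 and 1212 in AGS against 513, 600 and 601 in HGC-27, in MIST1, GFP control and parental cells. NONO, another core paraspeckle protein, was lower in AGS by 208698_s_at, at -0.82 (SE 0.08, limma adjusted p = 0.000122). HOTAIR, a trans-acting long non-coding RNA, read at most 6.41 in AGS and at least 160 in HGC-27. Histone genes were called lower in AGS in 8 of 22 cases and higher in 0, and genes of mitochondrial transcription and RNA handling in 17 and 6 of 31. By probe set, 9 of 25 were called either way for histones and 35 of 58 for mitochondrial transcription and RNA handling. For the long non-coding RNAs it was 24 of 50. Of all tested single-gene probe sets, 59.8% were called either way.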

How the data were processed

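RNA was hybridised to 1-colour Affymetrix arrays, 1 for each of 3 conditions in 2 cell lines. The authors deposited 1 linear intensity per probe set and array. The series design text names dChip. The background correction and scaling behind the deposited intensity values are not given in the sources used here. Array medians differed by 0.08 on the log2 scale, within a limit of 0.1, so no scaling was added. Probe sets with 1 gene (41097), several (1801) or none (11777) come from the platform annotation, with 41043 symbols updated by gene ID to RefSeq.

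Values were floored at 17.6 and taken to log2. limma 3.58.1 in R 4.3.3 (lmFit, eBayes with a trend) was fitted to 25948 single-gene probe sets over 6 arrays, with condition and cell line as terms and 2 residual degrees of freedom, two-sided, with Benjamini-Hochberg adjustment and a threshold of 0.05. The fit was tested on simulated data. The cell line pairs the arrays, as the labels give it. P-values measure the spread between single arrays of 2 lines. NEAT1/MIR612 values come from the same fit of 30897 probe sets, chosen after seeing the data. The number of arrays limits the precision.

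The members and lists were chosen with earlier results of these data known. Named genes are all probe sets of the members, list genes with a called probe set (at most 10) or else the 3 largest differences, of which the text prints a part, and up to 5 genes most like MALAT1 and COX3 among those at least 4-fold lower. Of 20 nuclear copies of mitochondrial sequence listed, 0 had a single-gene probe set. Of 11 markers of other cell types, 5 passed the filter.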

Additional observations from a re-analysis of the deposited data

Results flagged for a closer look

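Some probe sets moved in opposite directions in the 2 lines. With 1 array per condition and line, these differences were not tested. In the GFP control against parental cells, MALAT1 by 223578_x_at was at -0.80 in AGS and 0.99 in HGC-27 on the log2 scale, a gap of -1.79, and by 224558_s_at at -0.10 and 0.22, a gap of -0.32. NEAT1/MIR612 by 239269_at was at 0.81 and -0.08, a gap of 0.89. In MIST1 against the GFP control, the gaps of AGS minus HGC-27 among MALAT1 probe sets were -0.44 for 224559_at, 0.41 for 228582_x_at, -0.30 for 227510_x_at and 0.23 for 223940_x_at. ATP6 by 242131_at was at 0.43 and -0.25, a gap of 0.67. For 18S rRNA the gap was -0.41 at the 3' end and -0.061 in the middle.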

How the results depend on the processing

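For MIST1 over the GFP control, 61 probe sets were called when only the 4 arrays compared were fitted, against 0 in the fit of 6 arrays; leaving out 1 array gave 5 to 57, the highest without the AGS (52) or the HGC-27 (57) parental array. There the lone array of a condition is assumed to vary like the others. The other settings gave 0. For the GFP control over parental cells, against 171, the count was 505 with quantile normalization, 52 with no floor beyond 1, 0 when the median served as floor, 0 when dim probe sets were kept, 0 with no variance trend, 0 with no replicate block (the cell line), 1586 with only 4 arrays, 34 with 1 probe set a gene (13738 tested) and 398 with all probe sets. Leaving out 1 array gave 346 to 9946, the highest counts without a parental array (9946 without AGS, 8508 without HGC-27). For AGS over HGC-27, against 15520, it was 8303 with 1 probe set a gene, where fewer were tested; leaving out 1 array gave 13020 to 18873. The cause of the other shifts was not tested.

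A few small differences of MALAT1 and COX3 between lines changed sign with scaling: MALAT1 by 224558_s_at was -0.036 with quantile normalization and COX3 0.031 with each array centred on its median. The rest changed sign only when 1 array was left out. For MIST1 over the GFP control these ranged from -0.0015 to 0.18 for ND6, from -0.063 to 0.21 for COX3, and among MALAT1 probe sets from -0.058 to 0.72 for 223577_x_at, from -0.21 to 1.09 for 223578_x_at, from -0.45 to 0.60 for 223940_x_at, from -0.17 to 0.58 for 224559_at, from -0.23 to 0.44 for 224567_x_at, from -0.33 to 0.48 for 224568_x_at, from -0.14 to 0.79 for 226675_s_at, from -0.61 to 0.36 for 227510_x_at, from -0.31 to 0.55 for 228582_x_at and from -0.084 to 0.92 for 231735_s_at. The brightest MALAT1 probe set kept its sign there but ran from 0.045 to 0.63, and the 8 tested NEAT1/MIR612 probe sets kept theirs but ran from 0.0045 (224566_at) to 0.78 (234989_at). For the GFP control over parental cells the ranges were -0.60 to 0.79 for 223578_x_at, -0.12 to 0.24 for 224558_s_at and -0.0012 to 0.73 for NEAT1/MIR612 239269_at. For AGS over HGC-27 they were -0.012 to 0.64 for 223577_x_at, -0.19 to 0.71 for 223578_x_at, -0.081 to 0.76 for 231735_s_at, 0.022 to 0.22 for 224558_s_at and -0.10 to 0.12 for COX3.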
